A study of Mus musculus with 4 samples.

Results

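Acta2, Tagln, Cnn1, Smtn and Myh11 encode the contractile proteins by which smooth muscle of the vessel wall is usually recognised. All 5 were looked up by gene symbol in the annotation of the array, and every gene was represented by 1 probe set, so 5 of the 8251 genes named on the array are described, on 5 of its 12422 probe sets that are not controls. The study compared whole hearts of heterozygous mice with those of wild-type mice, with 2 samples of either genotype, on 1-colour oligonucleotide arrays. Every sample was total RNA from a pool of 5 hearts, and both genotypes were adult males of 8 to 16 weeks on a 129/Black Swiss background. The labels number the pools 1 and 2 and do not say that different animals went into them. The spread between these 4 samples may therefore be technical. The p-values rest on that spread only in part, because limma draws each variance toward that of probe sets of like brightness. Values are linear signal intensities, and a signal is compared only with the same probe set on another array.

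Smooth muscle contracts when calcium bound to calmodulin activates myosin light chain kinase and phosphorylated myosin pulls on actin filaments. Serum response factor, together with the coactivator myocardin, drives the contractile genes through CArG boxes, short AT-rich elements in their control regions, and the genes are turned down when a smooth muscle cell gives up contraction for growth and migration. In a whole heart these transcripts come mainly from the walls of coronary and large vessels. Acta2 and Tagln are also made by activated fibroblasts and by heart muscle cells before birth.

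Acta2 was the single member that passed the test, with a signal 1.67-fold higher in the heterozygous pools. The other 4 members had log2 changes above 0 that did not pass, from 0.13 for Myh11 to 1.61 for Smtn. Passing means an adjusted p under 0.05 in a limma fit of all 7453 tested probe sets with Benjamini-Hochberg adjustment, and each SE is the standard error of a log2 change in that fit. Of the tested probe sets, 38.3% passed in either direction, 17.9% as higher and 20.4% as lower, so 1 of 5 members, higher, is a share near the background. An unadjusted p under 0.05 was reached by 2 of 5 members, Acta2 and Smtn, and by 47.8% of tested probe sets. With arrays shifted to a common median, Tagln and Smtn passed as well, so 3 of 5 members were higher beside 26.1% of tested probe sets, and 62.5% of all calls were higher in place of 46.8%. Pools of whole organs do not tell fewer cells of a type from less RNA per cell.

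**Figure D1:**
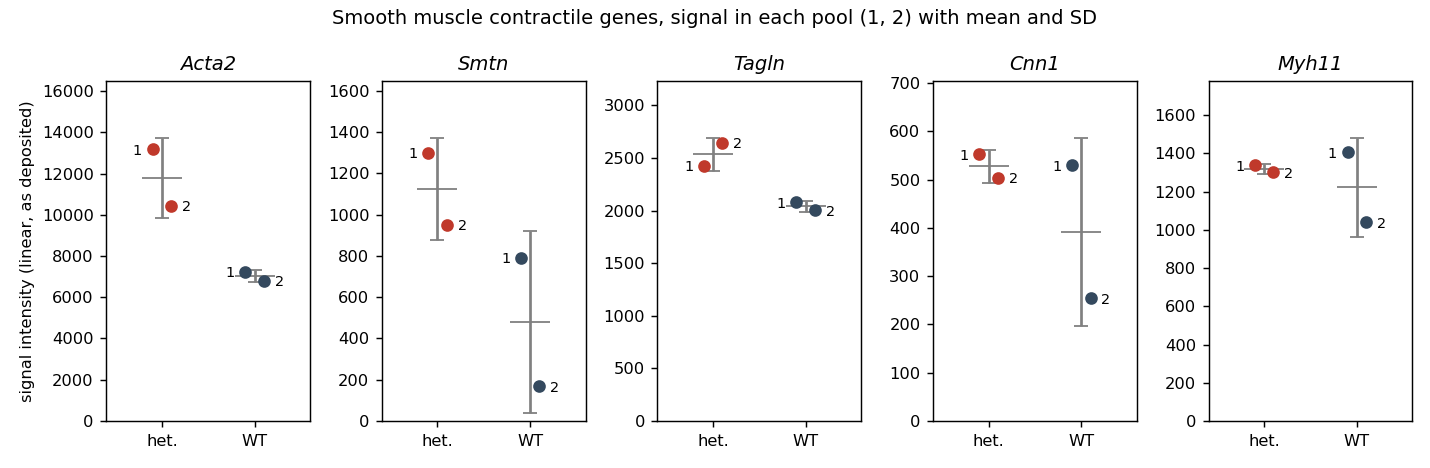
Signal intensity of the 5 genes on a linear axis from 0, with the pools (1 and 2) of heterozygous mice (het.) left of those of wild-type mice (WT). Horizontal bars are means and whiskers the SD over 2 pools. Both heterozygous pools of Acta2, Smtn and Tagln lie above both wild-type pools, and wild-type pool 2 is far below wild-type pool 1 for Smtn and Cnn1.

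Acta2 (probe set 93100_at) encodes smooth muscle alpha-actin, the thin filament protein of vascular smooth muscle. Its signal was 13176.1 and 10432.4 in heterozygous pools 1 and 2, against 7250.4 and 6810.5 in wild-type pools 1 and 2. Both heterozygous pools lay well above both wild-type pools, and the heterozygous pools differed more from each other than the wild-type pools did. The means were 11804 ± 1940 in heterozygous and 7030 ± 311 in wild-type hearts (SD, n = 2 pools each), a log2 change of 0.74 (SE 0.16, 95% interval 0.39 to 1.09, limma adjusted p = 0.00598). Without heterozygous pool 1 the log2 change was 0.57 and the call ended (limma adjusted p = 0.0751). It also ended when dim probe sets were kept in the fit (limma adjusted p = 0.0825), where 3.88% of 12422 probe sets passed as higher. With arrays centred on a list of heart muscle genes, the log2 change of Acta2 was -0.064 and did not pass. That centring moved the median of all tested probe sets to -0.80, and 4713 of 7453 passed as lower.

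The RefSeq promoter table (GRCm38.p6) held Acta2, Smtn and Cnn1, and the 250 bases before their start sites are shown because CArG boxes are the best known control element of this gene group. Capitals mark CArG boxes in which 1 of the 6 core bases is G or C in place of A or T, and the letters CATTCC, known as the MCAT element, on either strand. Acta2 lies at chr19:34255374-34255623 (minus strand), Smtn at chr11:3539293-3539542 (minus strand) and Cnn1 at chr9:22099003-22099252 (plus strand), all printed 5′ to 3′ on the strand of the gene.
Acta2: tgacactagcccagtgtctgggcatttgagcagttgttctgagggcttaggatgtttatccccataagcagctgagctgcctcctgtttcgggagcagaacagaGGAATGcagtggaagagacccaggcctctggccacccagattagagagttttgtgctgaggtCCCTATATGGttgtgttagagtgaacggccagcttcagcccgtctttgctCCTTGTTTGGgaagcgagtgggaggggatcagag
Smtn: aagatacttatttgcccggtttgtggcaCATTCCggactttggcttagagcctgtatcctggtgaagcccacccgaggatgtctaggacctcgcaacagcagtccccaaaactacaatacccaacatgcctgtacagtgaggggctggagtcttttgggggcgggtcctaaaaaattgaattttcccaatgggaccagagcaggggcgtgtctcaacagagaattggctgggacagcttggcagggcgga
Cnn1: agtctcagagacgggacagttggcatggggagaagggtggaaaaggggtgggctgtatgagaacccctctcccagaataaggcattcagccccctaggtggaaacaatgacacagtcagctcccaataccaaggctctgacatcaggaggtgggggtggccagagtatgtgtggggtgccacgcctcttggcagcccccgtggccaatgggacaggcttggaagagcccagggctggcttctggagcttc

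The Acta2 window held a pair of these near-CArG matches. CCCTATATGG began 84 bases before the start site and CCTTGTTTGG began 34 bases before it. Of 32851 promoter windows of the same length, 7.24% held at least 1 such match and 0.548% held 2 or more. The strict CArG box, with A or T at all 6 core positions, was in 1.47% of windows and in none of the windows shown. CATTCC on either strand was in 12.6% of windows, in Acta2 146 bases and in Smtn 222 bases before the start site, counted to its first printed base. Neither motif was in the Cnn1 window. A match in letters describes the sequence and says nothing about binding in these hearts.

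Tagln (93541_at) encodes transgelin, or SM22-alpha, an actin-binding protein that is an early marker of smooth muscle. Its signal was 2422.4 and 2645.9 in the heterozygous pools, against 2078.4 and 2003.8 in the wild-type pools. All 4 values were close, and the heterozygous pools were both above the wild-type pools. The means of 2534 ± 158 in heterozygous and 2041 ± 52.8 in wild-type hearts (SD, n = 2 pools each) gave a log2 change of 0.31 (SE 0.16, 95% interval -0.051 to 0.67, limma adjusted p = 0.156). With a common median it was 0.49 and passed (limma adjusted p = 0.0429). With arrays centred on heart muscle genes it was -0.49 and passed as lower (limma adjusted p = 0.0304). The median of all tested probe sets was -0.80 with that centring, and 4713 of 7453 passed as lower.

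Cnn1 (99942_s_at) encodes basic calponin, which binds actin and slows the myosin motor. Its signal was 552.1 and 503.7 in the heterozygous pools, against 529.7 and 253.7 in the wild-type pools. Wild-type pool 1 lay between the heterozygous pools and wild-type pool 2 stood far below them, so the groups overlapped. The means were 527.9 ± 34.2 in heterozygous and 391.7 ± 195 in wild-type hearts (SD, n = 2 pools each), and the log2 change was 0.52 (SE 0.39, 95% interval -0.36 to 1.40, limma adjusted p = 0.319). Leaving out wild-type pool 1 gave 1.06, and leaving out wild-type pool 2 gave -0.0064. Cnn1 was the dimmest member, with only 8.91% of tested probe sets dimmer.

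Smtn (98559_at) encodes smoothelin, an actin-associated protein of fully differentiated, contractile smooth muscle. Its signal was 1299.8 and 949.4 in the heterozygous pools, against 791.0 and 167.2 in the wild-type pools. Both heterozygous pools were above both wild-type pools, and the gap between the wild-type pools was wider than that between the heterozygous pools. The means were 1125 ± 248 in heterozygous and 479.1 ± 441 in wild-type hearts (SD, n = 2 pools each). The log2 change was the largest of the 5 members at 1.61, with the widest error (SE 0.59, 95% interval 0.27 to 2.95, limma adjusted p = 0.0593). Its SE depends on how limma moderates the variance, and was 0.93 when dim probe sets were kept in the fit. With a common median the log2 change was 1.79 and passed (limma adjusted p = 0.0200). Without wild-type pool 1 it was 2.73 and passed (limma adjusted p = 2.0e-04), and without wild-type pool 2 it was 0.49 and did not (limma adjusted p = 0.234).

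Myh11 (97990_at) encodes smooth muscle myosin heavy chain, the motor of the thick filament and the most specific marker of mature smooth muscle. Its signal was 1338.4 and 1302.5 in the heterozygous pools, against 1406.8 and 1039.8 in the wild-type pools. The heterozygous pools lay between the wild-type pools. The means of 1320 ± 25.4 in heterozygous and 1223 ± 260 in wild-type hearts (SD, n = 2 pools each) gave a log2 change of 0.13 (SE 0.20, 95% interval -0.34 to 0.59, limma adjusted p = 0.663). In linear terms the interval reaches from 0.792 to 1.51 times the wild-type level. Without wild-type pool 1 the log2 change was 0.34 and without wild-type pool 2 it was -0.092, neither of which passed. With arrays centred on heart muscle genes it was -0.68 and passed as lower (limma adjusted p = 0.0164). The median of all tested probe sets was then -0.80, and 4713 of 7453 passed as lower.

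**Figure D2:**
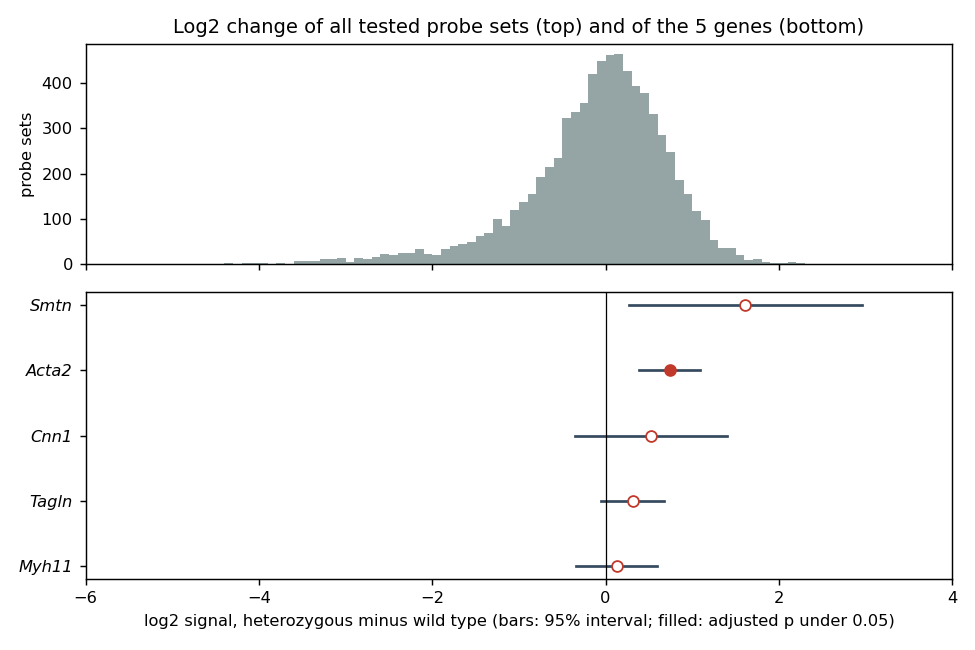
Top, number of tested probe sets by log2 change (heterozygous minus wild type). Bottom, log2 change of the 5 genes on the same axis with limma's 95% interval. A filled point marks an adjusted p under 0.05, reached by Acta2 alone, and the intervals of Cnn1, Tagln and Myh11 cross 0.

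Across the 5 members the median log2 change was 0.52, beside 0.0011 over all tested probe sets. The members' median was 0.28 when wild-type pool 2 was left out, 0.78 when wild-type pool 1 was left out, 0.70 with a common median and -0.28 with centring on heart muscle genes. Heterozygous and wild-type pools were fully separated in 3 of 5 members, all higher in heterozygous hearts. The same held for 70.1% of tested probe sets in either direction and for 34.6% as higher. The common-median scaling raised the median of all tested probe sets to 0.18 and quantile normalization raised it to 0.10. Acta2 had a log2 change of 0.92 beside the 0.18 and of 0.63 beside the 0.10, and passed both times. Centring on heart muscle genes moved the median of all probe sets to -0.80.

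The spread between pools of 1 genotype differed widely among the members. Between the wild-type pools Smtn differed 4.73-fold, a wider gap than in 99.8% of tested probe sets, and Cnn1 differed 2.09-fold, wider than in 98.3%. Myh11 differed 1.35-fold between them, while Acta2 and Tagln differed 1.06-fold and 1.04-fold. Between the heterozygous pools the widest gap was that of Smtn at 1.37-fold and the narrowest that of Myh11 at 1.03-fold. Over all tested probe sets the median gap was 1.16-fold between heterozygous and 1.15-fold between wild-type pools. Wild-type pool 2 had the lower wild-type value in all 5 members, as it did in 48.9% of tested probe sets.

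**Figure D3:**
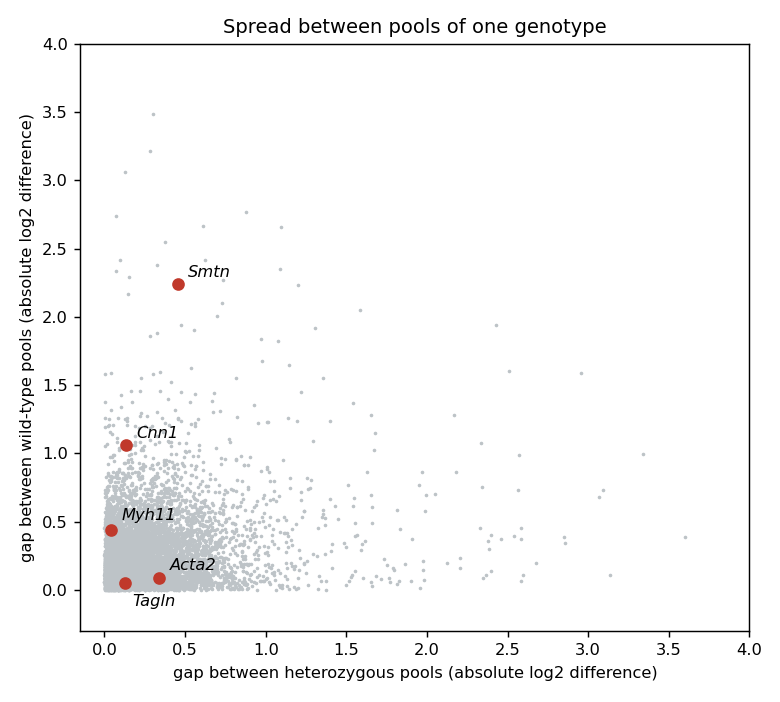
Absolute log2 difference between the heterozygous pools (horizontal) and between the wild-type pools (vertical) for every tested probe set (grey) and the 5 genes (red). Smtn and Cnn1 stand far up the wild-type axis, and Acta2 and Tagln lie near its origin.

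**Figure D4:**
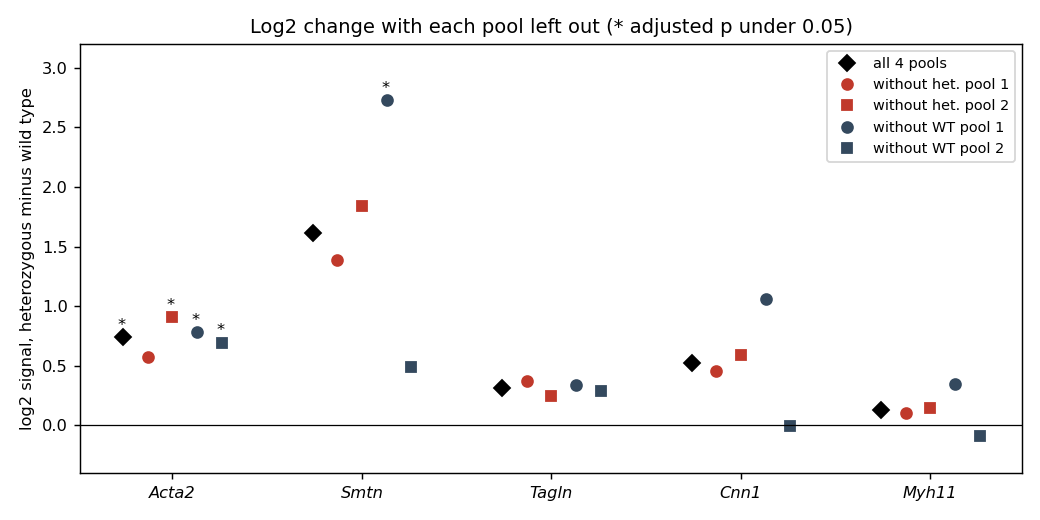
Log2 change (heterozygous minus wild type) of the 5 genes with all 4 pools (black diamonds) and with each heterozygous (het.) or wild-type (WT) pool left out. A star marks an adjusted p under 0.05. Tagln moves little, while Smtn and Cnn1 depend on which wild-type pool is left out.

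Ratios within an array do not change when each array is multiplied by a single factor, but quantile normalization and cyclic loess can change them. The log2 changes of Acta2, Tagln and Myh11 were 0.63, 0.40 and 0.26 with quantile normalization. With cyclic loess they were 0.56, 0.30 and 0.19. The ratios below are on the deposited scale. The log2 ratio of Acta2 to Tagln was 2.21 ± 0.33 in heterozygous and 1.78 ± 0.027 in wild-type pools (SD, n = 2 each), and that of Acta2 to Myh11 was 3.15 ± 0.21 in heterozygous and 2.54 ± 0.24 in wild-type pools. For both ratios, each heterozygous value was above each wild-type value, by 0.43 and 0.61 in the mean. The ratios of Acta2 to the other 2 members overlapped between genotypes. That to Cnn1 was 4.47 ± 0.14 in heterozygous and 4.26 ± 0.69 in wild-type pools, and that to Smtn was 3.40 ± 0.082 in heterozygous and 4.27 ± 1.52 in wild-type pools (SD, n = 2 each), a difference of -0.87. Against the mean of 19 heart muscle genes, the log2 ratio of Acta2 was -1.85 ± 0.26 in heterozygous and -1.78 ± 0.020 in wild-type pools, which overlapped. Tagln and Myh11 were lower in heterozygous pools against that mean, by log2 differences of -0.49 and -0.68 with no overlap. Most probe sets were lower against it: centring on the same genes gave a median of -0.80 over all tested probe sets, and 4713 of 7453 passed as lower. Over 18 such ratios the two-sided exact permutation p ran from 0.333, the smallest that 2 pools against 2 can give, to 1.00, and from 0.75 to 1.00 after Benjamini-Hochberg adjustment.

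Probe sets of related actins bear on Acta2, since muscle actins are nearly identical in their coding sequence. Which actins the probes of 93100_at detect was not tested, nor was it for the other actin probe sets below, which are named by their annotation. Actc1, cardiac alpha-actin, had signals of 92907.8 and 87080.9 in heterozygous and 77222.2 and 65519.0 in wild-type pools on its brighter probe set, a log2 change of 0.34 that did not pass (limma adjusted p = 0.0726). Its other probe set rose by 0.44 on the log2 scale (limma adjusted p = 0.0204). Actg2, gamma-actin of smooth muscle and named after its value was seen, had 3442.6 and 2832.1 in heterozygous against 1946.7 and 2897.6 in wild-type pools. Its pools overlapped, and its log2 change of 0.39 did not pass (limma adjusted p = 0.179). Acta1, skeletal alpha-actin, had 24964.9 and 20073.5 in heterozygous against 32668.5 and 27860.6 in wild-type pools, a log2 change of -0.43 (limma adjusted p = 0.0541). Acta1 passed as lower with quantile normalization (-0.61), with cyclic loess (-0.72) and when wild-type pool 2 was left out (-0.55). Actc1 passed as higher on its brighter probe set with a common median (0.52) and when wild-type pool 1 was left out (0.46), and had -0.068 with cyclic loess. Within an array, Acta2 was higher in heterozygous pools relative to Actc1 by 0.40 and relative to Acta1 by 1.17 on the log2 scale, with no overlap of the pools. The same held relative to Actg1, cytoplasmic gamma-actin, by 1.16. Relative to Actb, cytoplasmic beta-actin, the difference was -0.34 and the pools overlapped.

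Relatives of smooth muscle contractile genes that act outside smooth muscle went both ways. The list held relatives of Acta2, Tagln, Cnn1 and Myh11 but none of Smtn. It also held Tpm3, Tpm4, Actn4 and Myl12b, which are not related to the 5 members. Among its 12 tested genes, called paralogs here, 1 rose, 3 fell and 8 did not pass. Their median log2 change was -0.24. Actb rose on both probe sets, with a log2 change of 1.08 on the brighter one (limma adjusted p = 0.00707). Leaving out heterozygous pool 2 gave 0.87, which did not pass. Myh9, non-muscle myosin heavy chain, fell on both probe sets (-0.65 on the brighter one), Actg1 fell by 0.43 on the log2 scale, and Tpm3, a tropomyosin, fell by 0.62 on the log2 scale. The Myh9 call ended without heterozygous pool 1 (-0.71), heterozygous pool 2 (-0.60) or wild-type pool 1 (-0.46). That of Actg1 ended without heterozygous pool 1 (-0.45) or heterozygous pool 2 (-0.40), and that of Tpm3 without heterozygous pool 1 (-0.38), wild-type pool 1 (-0.64) or wild-type pool 2 (-0.59). With a common median 3 paralogs rose and none fell, beside 1945 higher and 1167 lower calls over all 7453 tested probe sets. With dim probe sets kept none of 14 passed, beside 482 higher and 723 lower calls over all 12422 probe sets. Limma without a variance trend left 1 higher and none lower, beside 1085 and 1410 over all tested probe sets. Centring on heart muscle genes left none higher and 11 of 12 lower, beside 4713 of 7453 tested probe sets lower. The paralogs numbered 1 higher and 0 lower without heterozygous pool 1. Without heterozygous pool 2 they numbered 0 and 1. Without wild-type pool 1 they numbered 2 and 1.

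Other genes of smooth muscle, among them receptors and membrane proteins as well as contractile ones, were mixed. The list is not specific to smooth muscle, and which cells of the heart its signals came from was not tested. Of 24 tested genes of that list, 8 rose, 3 fell and 13 did not pass. Their median log2 change was 0.47, where 19.5% of all tested genes rose, 19.5% fell and the median was 0.021. Fhl1 and Fhl2, LIM-domain proteins that are also abundant in heart muscle, rose by log2 changes of 1.08 (SE 0.15) and 0.87 (SE 0.12). The others that rose were Vcl, Cav1, Pdlim3, Des, Itga7 and Tpm2, while Myl9 and Actg2 did not pass. These genes are named after their values were seen. Actn1, a non-muscle alpha-actinin that crosslinks actin, had a log2 change of -1.30 (SE 0.15) on its brightest probe set. It fell on 2 of 3 tested probe sets. The remaining one, the dimmest, had overlapping pools and a log2 change of 0.14 that did not pass (limma adjusted p = 0.772). Which of the Actn1 probe sets also detect other transcripts was not tested. Csrp1, a LIM-domain protein of smooth muscle, fell on both of its probe sets (-1.24, SE 0.15). Tbxa2r, the thromboxane receptor, was the third gene that fell (-1.66, SE 0.30) and is named after its value was seen. That call ended when dim probe sets were kept in the fit, where 723 of 12422 probe sets passed as lower.

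Mylk, the kinase that phosphorylates the myosin light chain, and Rhoa, the GTPase that holds contraction by restraining myosin phosphatase, had log2 changes of 0.14 (limma adjusted p = 0.617) and 0.079 (limma adjusted p = 0.682). Mylk had signals of 3834.2 and 3138.2 in heterozygous and 2616.3 and 3763.2 in wild-type pools, which overlapped. Without wild-type pool 1 its log2 change was -0.12, and that of Rhoa was -0.073 under cyclic loess. With a common median, 13 genes of the list rose, beside 26.1% of tested probe sets. Without heterozygous pool 2 the median log2 change of the list was 0.54. Centring on heart muscle genes left none higher and 8 lower, and Fhl1 and Fhl2 did not pass.

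Among transcription factors and growth factors that act on smooth muscle, 11 of 23 tested genes rose, 2 fell and 10 did not pass. Their median log2 change was 0.55. Ccn2, a matrix protein induced by transforming growth factor beta, rose by 1.46 on the log2 scale (SE 0.15, limma adjusted p = 1.8e-04). Klf4, a transcription factor known to repress contractile genes in smooth muscle cells, had 4054.2 and 4577.4 in heterozygous against 1776.8 and 1615.3 in wild-type pools and rose by 1.35 on the log2 scale (SE 0.16, limma adjusted p = 3.5e-04). Gata6 rose by 1.18 on the log2 scale and Pdgfa, a platelet-derived growth factor chain, by 1.01. Smad4 (0.46, limma adjusted p = 0.0658) and Foxo4 (0.29, limma adjusted p = 0.259) did not pass, although Smad4 passed with a common median (0.64) and without wild-type pool 2 (0.67).

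The genes that fell in the list of regulators were Mrtfa, a coactivator of serum response factor (-0.73, limma adjusted p = 0.0154), and Smad2 (-0.94, limma adjusted p = 0.00764), both named after their values were seen. The Mrtfa call ended when any 1 of the pools was left out, with log2 changes between -0.74 and -0.72. That of Smad2 ended without heterozygous pool 2 (-0.69) and when dim probe sets were kept. The number of regulators that rose was 7 without heterozygous pool 1. It was 6 when heterozygous pool 2 was left out, and 1 fell when any pool was left out. With dim probe sets kept, 6 of 33 regulators rose and 1 fell, beside 3.88% of all 12422 probe sets that rose. Centring on heart muscle genes left 2 higher and 5 lower, and Gata6 and Pdgfa did not pass.

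In the list of elastic fibre and basement membrane genes 7 of 12 rose and none fell. Their median log2 change was 0.78. Ltbp4, which binds latent transforming growth factor beta (1.55, SE 0.15), Col4a2, a basement membrane collagen (1.10, SE 0.15), Mgp, an inhibitor of vessel calcification (1.03, SE 0.15), and Fbln2, an elastic fibre protein (0.89, SE 0.16), had the smallest p-values. Hspg2, perlecan (0.48, limma adjusted p = 0.146), and Lamb2, a laminin chain (0.42, limma adjusted p = 0.115), did not pass. Both passed with a common median, which raised the count to 11, beside 26.1% of tested probe sets higher. Hspg2 also passed without wild-type pool 2 (0.81). The Fbln2 call ended when dim probe sets were kept, where 3.88% of 12422 probe sets passed as higher.

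Pericytes wrap the smallest vessels and share many transcripts with smooth muscle. Of 8 tested pericyte markers 4 rose, none fell and 4 did not pass. Their median log2 change was 0.67. Some are counted in other lists too, such as Des with smooth muscle and Pdgfrb and Notch3 with the regulators. Abcc9, a subunit of a potassium channel, had a log2 change of 0.98 (SE 0.16, limma adjusted p = 0.00161). Which cells of the heart its signal came from was not tested. Des, the muscle intermediate filament desmin, also abundant in heart muscle, had 0.79 (limma adjusted p = 0.00780), Anpep, an aminopeptidase, had 1.02 (limma adjusted p = 0.0113), and Pdgfrb, the receptor by which pericytes are recruited, had 0.90 (limma adjusted p = 0.0307). The defining marker Rgs5 had 1029.2 and 1460.7 in heterozygous against 1278.9 and 1432.5 in wild-type pools on its brighter probe set, which overlapped, with a log2 change of -0.14 (limma adjusted p = 0.641). Its other probe set had 0.45 and did not pass (limma adjusted p = 0.120). Notch3, a receptor of mural cells, did not pass (0.39, limma adjusted p = 0.104) but did with a common median (0.56) and with quantile normalization (0.51).

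Several pericyte calls ended in fits of 3 pools, with log2 changes close to those of all 4. Those fits had fewer calls over all tested probe sets too. Leaving out heterozygous pool 2 ended that of Des (0.71), and that of Pdgfrb ended when any 1 pool was left out, with log2 changes from 0.79 to 1.02. The Anpep call ended without heterozygous pool 1 (1.02), heterozygous pool 2 (1.02) or wild-type pool 1 (0.88). The pericyte median was 0.59 without heterozygous pool 1, 0.75 without heterozygous pool 2 and 0.66 without wild-type pool 1. With dim probe sets kept, 1 of 8 pericyte markers rose, beside 3.88% of all 12422 probe sets.

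Endothelial markers rose in 15 of 18 cases with none lower. Fibroblast and matrix genes rose in 17 of 22 cases with 1 lower. The median log2 changes of these lists were 0.94 and 0.77. Without heterozygous pool 1 the fibroblast and matrix median was 0.75, and without heterozygous pool 2 it was 0.86. With dim probe sets kept, 6 of 19 endothelial and 3 of 24 fibroblast and matrix genes rose, beside 3.88% of all 12422 probe sets. Centring on heart muscle genes left 1 elastic fibre gene, 3 endothelial markers and no pericyte, fibroblast or matrix gene higher. The calls of Col4a2, Mgp, Fbln2 and of all 4 pericyte markers ended with it.

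**Figure D5:**
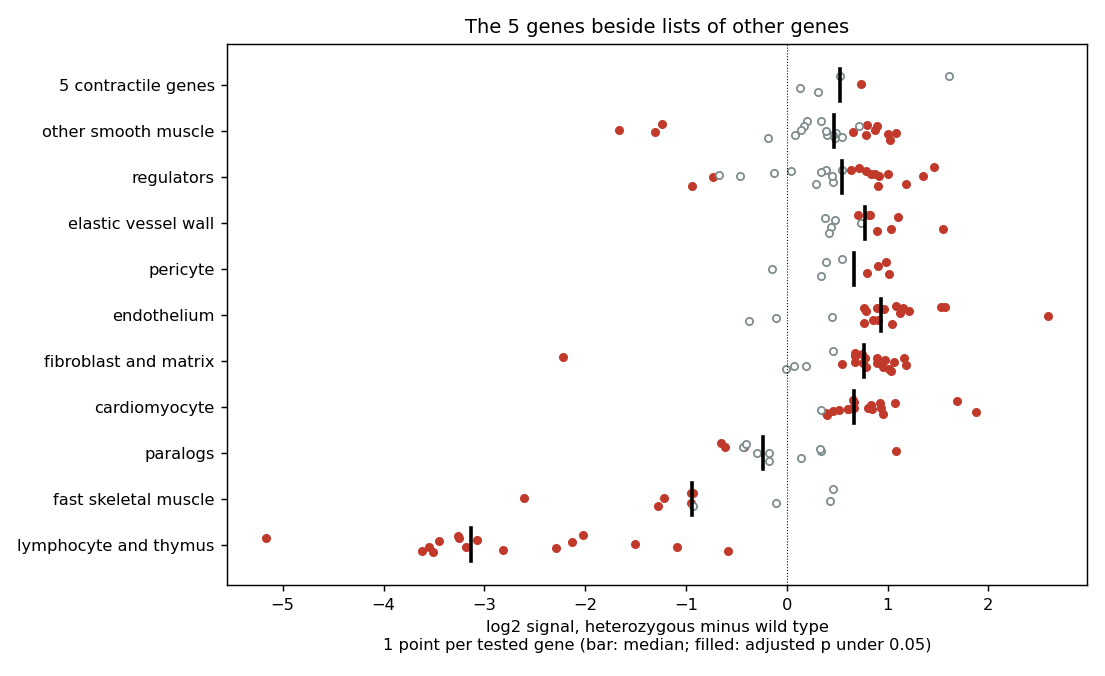
Log2 change (heterozygous minus wild type) of tested genes, 1 point per gene on its brightest probe set, in the 5 contractile genes and in 10 further lists. Filled points have an adjusted p under 0.05 and black bars are medians. Smtn (1.61) lies above and the other 4 genes within the range of the other smooth muscle list (-1.66 to 1.08), and the lymphocyte and thymus markers lie far below 0.

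Markers of some other tissues moved between the same pools. All 16 tested lymphocyte and thymus markers fell, with summed signals of 23182 and 23370 in heterozygous and 155199 and 155386 in wild-type pools. Fast skeletal muscle genes fell in 6 of 10 tested cases. Sums over all 13 on the array were 12009 and 12502 in heterozygous and 23442 and 22808 in wild-type pools. Lung and airway markers, from an organ rich in smooth muscle, rose in 3 of 4 tested cases. Sums over all 6 on the array were 56866 and 48901 in heterozygous and 22362 and 19612 in wild-type pools. Most of each sum was Scgb1a1, named after its values were seen. It had 52300.0 and 44848.8 in heterozygous and 21075.8 and 17938.6 in wild-type pools. Heart muscle markers rose in 18 of 19 cases, with sums of 1177252 and 1198070 in heterozygous and 800736 and 713321 in wild-type pools, and none of the markers of these 4 lists was at or below the signal floor of 36.4 in all pools. The heart muscle calls numbered 10 under cyclic loess and 3 with dim probe sets kept, beside 16.6% and 3.88% of all probe sets higher. The median log2 change of that list was 0.67 with all 4 pools. It was 0.71 without heterozygous pool 1 and 0.69 without heterozygous pool 2. Of 9 tested macrophage markers 1 rose and 2 fell (median log2 change 0.052), of 7 adipose markers none rose and 1 fell (0.061), and of 3 erythroid markers 2 rose (0.90). With 1 pool left out, the median ran from -0.12 to 0.10 for macrophage markers and from 0.75 to 0.95 for erythroid markers. The part of these tissues in the values of Acta2 and the other members was not tested.

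Likeness between patterns was measured as the Euclidean distance between centred log2 signals over the 4 pools, among 5692 tested genes. Nearest to Acta2 were Dock9, Ppa2 and Ulk2, at 0.022, 0.038 and 0.044. Tagln was nearest to 9530068E07Rik, Ercc2 and Ube2z, at distances of 0.029, 0.043 and 0.044, and Myh11 to Gstz1, Tulp3 and Aamp, at 0.015, 0.053 and 0.065. Cnn1 had Slc23a3, Reep6 and Ccl6 nearest, at 0.13, 0.14 and 0.17, and Smtn had Nbl1, Tbx2 and Slc6a2 at 0.71, 0.92 and 0.94. Among the members themselves the closest pair was Tagln and Myh11 at 0.35, and the farthest was Smtn and Tagln at 2.06. Each of the 3 neighbours named for a member was closer to it than any other member was. Neighbours picked from 5692 genes are nearly bound to be closer than a few other members. The comparison therefore says nothing about how alike the members are. The distances describe these 4 pools only.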

How the data were processed

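The authors deposited 1 linear signal intensity per probe set and array. Its software and scaling are not given in the sources used here. Intensities of the 12422 probe sets left without 66 controls had trimmed means (2% off each end) that were nearly equal, so they were used without rescaling. The gene for which the mice were heterozygous is not reported here.

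Signals under the 10th percentile (36.4) were raised to it before taking log2, and the 40% dimmest probe sets were not tested, which left 7453. All members were tested. Genotype was the only term in limma 3.58.1 (lmFit, eBayes with trend) in R 4.3.3, with Benjamini-Hochberg adjustment over all tested probe sets. The variance prior of that fit had 6.83 degrees of freedom, against 2 residual ones from the pools. The procedure was tested on simulated data, its noise drawn from limma's own variance model. In simulations with permuted SDs of the probe sets, or with a prior fitted to dim probe sets too, it recovered none of the largest changes put in. Exact permutation tests used scipy 1.17.1. For lists, the brightest tested probe set of a gene was used. Lists overlap, and a gene of several lists, such as Des, Cav1, Pdgfrb or Mgp, is counted in each, so their counts are not independent. Names came from the annotation of the platform, in which 10833 of these probe sets carried 1 symbol.

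The members and lists were chosen with earlier results of these data known. Named genes are the members, the 3 nearest neighbours of each, and up to 4 changed genes of smallest p and up to 2 bright unchanged ones in the smooth muscle, regulator, paralog, pericyte and elastic fibre lists; the other lists are given by counts, a choice made after their values were seen. Genes marked as named after their values were seen fall outside this rule. The ratios within an array, the gaps and order of pools and the CArG and CATTCC matches beyond the strict CArG box were also chosen after the data were seen. With 1 pool left out, the lone pool is assumed to vary like the other genotype. The number of arrays limits precision. Alternatives covered scaling, floor, filter, moderation, pool number as a block, threshold and pools left out.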

Additional observations from a re-analysis of the deposited data

How the results depend on the processing

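Counts of members higher were 3 with a common median (1945 higher and 1167 lower calls over all tested probe sets), 2 with the pool number as a block (1445 and 1590; Smtn passed, log2 change 1.61, limma adjusted p = 0.0318), 0 without the filter on dim probe sets and 0 higher with 2 lower when arrays were centred on heart muscle genes. The labels do not say that pools of the same number share animals, a batch or a day, and the differences between pools 1 and 2 correlated at 0.16 across probe sets between genotypes, so whether the numbers pair the pools is unknown. Over all tested probe sets, the 1337 higher and 1519 lower calls became 112 and 4713 with that centring. They became 482 and 723 of 12422 without the filter, and 691 and 968 at a threshold of 0.01. Other smooth muscle genes numbered 13 higher with a common median, and 0 higher and 8 lower with that centring. Leaving out 1 pool gave 653 to 1126 higher and 1120 to 1147 lower calls, 0 to 2 members higher and 0 lower, and 5 to 9 other smooth muscle genes higher and 3 to 4 lower.

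Centring on heart muscle genes turned the log2 changes of Acta2 (-0.064), Tagln (-0.49), Cnn1 (-0.28), Myh11 (-0.68), Rhoa (-0.72), Mylk (-0.66), Smad4 (-0.34), Foxo4 (-0.51), Actc1 (-0.46), Des (-0.011), Notch3 (-0.42), Hspg2 (-0.32) and Lamb2 (-0.38) below 0. These turns follow from its construction, since it lowers every log2 change by the same amount, and say nothing about single genes. Rhoa was also below 0 under quantile normalization (-0.016) and cyclic loess (-0.073), and Actc1 under cyclic loess (-0.068). Rgs5 was above 0 with a common median (0.037) and quantile normalization (0.0031). The cause of these other turns was not tested. With 1 pool left out, Myh11 ran from -0.092 to 0.34, Cnn1 from -0.0064 to 1.06, Mylk from -0.12 to 0.41 and Rgs5 from -0.40 to 0.11. The other floors and the offset moved none of the 38 log2 changes examined across the threshold. With 2 pools of each genotype, changes of Tagln, Cnn1 or Myh11 within the intervals given are not resolved.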
